A study of Mus musculus with 16 samples.

Results

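The nuclear factor I (NFI) family consists of 4 transcription factors in the mouse, Nfia, Nfib, Nfic and Nfix, and all 4 were listed among the 24421 gene names measured in the dentate gyrus, the part of the hippocampus where new neurons are formed throughout life. The members were taken by gene name, and each had 1 entry per library. The family was chosen by measured values, because the TPM of Nfix (a share of all transcripts that is corrected for transcript length) took separate levels in libraries of the same group. The levels of Nfix are described below without a test, whereas Nfia, Nfib and Nfic were tested. RNA was obtained from one-year-old male C57BL/6 mice, from pools of 2 animals per library, with 4 libraries in each of 4 groups. The p16 WT CTL (replicates 1 to 4) and p16 WT RUN (replicates 9 to 12) mice carried the intact p16Ink4a gene, and the p16 KO CTL (replicates 5 to 8) and p16 KO RUN (replicates 13 to 16) mice were p16Ink4a -/-. CTL mice were sedentary and RUN mice had a running wheel for 12 days. The null allele removes p16Ink4a and leaves p19Arf, the other product of the Cdkn2a locus, functional, and was made in the FVB strain before it was bred to C57BL/6, in all cells of the body.

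NFI proteins bind DNA as dimers, at palindromes made of a pair of TTGGC units. They share a conserved DNA-binding domain at the amino terminus and diverge in the carboxyl-terminal part. In the developing brain Nfia and Nfib promote the onset of astrocyte formation, and Nfix is known in the hippocampus for its role in the quiescence of neural stem cells and in the maturation of newborn granule neurons. Nfic, which is also expressed widely, is best known for its role in tooth root formation.

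The genes were located from the deposited tables (build mm10), in which the start and the end of each member were the same in all 16 libraries. Nfia lay on the plus strand at chr4:97581943-98118876, Nfib on the minus strand at chr4:82290173-82505779, Nfic on the minus strand at chr10:81396191-81427173 and Nfix on the minus strand at chr8:84704712-84800338. The GENCODE annotation of the same assembly gives Nfia 7 protein-coding transcripts, Nfib 7, Nfic 6 and Nfix 5, the latter of 1403 to 5476 bases with 9 to 11 exons. All GENCODE transcripts of a gene together span chr4:97772734-98118874 for Nfia, chr4:82290173-82705750 for Nfib, chr10:81396186-81455635 for Nfic and chr8:84699876-84800344 for Nfix. These spans are not the same as those of the deposited entries. The longest coding sequence had 1527 bases in Nfia, 1710 in Nfib, 1383 in Nfic and 1482 in Nfix.

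As the members are paralogs, the stretches that could be confused in counting were sought in their annotated coding sequences. The longest run of identical bases shared by any pair was 32 bases, between Nfic and Nfix, followed by 21 bases between Nfib and Nfix, and the other pairs shared at most 18. In the whole transcripts the longest shared run was also 32 bases. The window of 62 coding bases around the run of 32 is shown for each member, because it is where Nfix is most like a relative. It encodes a part of the DNA-binding domain, lies in a single exon of each gene and is written 5′ to 3′ in the direction of transcription, with capitals for the bases that are the same as in Nfix (all bases, in the line of Nfix itself).
Nfix: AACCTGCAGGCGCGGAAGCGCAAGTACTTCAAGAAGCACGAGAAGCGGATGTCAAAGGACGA
Nfic: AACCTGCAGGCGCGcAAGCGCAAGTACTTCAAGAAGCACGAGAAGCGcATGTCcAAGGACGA
Nfib: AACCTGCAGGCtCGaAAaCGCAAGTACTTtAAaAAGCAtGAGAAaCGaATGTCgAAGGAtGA
Nfia: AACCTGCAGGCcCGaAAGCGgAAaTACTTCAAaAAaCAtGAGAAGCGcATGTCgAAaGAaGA
The windows lie at chr8:84772188-84772249 in Nfix, chr10:81420671-81420732 in Nfic, chr4:82498642-82498703 in Nfib and chr4:97783148-97783209 in Nfia. Nfic had 59 of the 62 bases in common with Nfix, Nfib had 52 and Nfia had 51.

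Nfix was the most abundant member, with a mean of 195 TPM over the 16 libraries (rank 1016 among all gene names), followed by Nfib with 120.5 TPM (rank 1777), Nfic with 46.7 TPM (rank 4611) and Nfia with 38.3 TPM (rank 5316). TPM is a measure per length, so these levels can be set side by side. This order was not the same in every library. Nfix was above Nfib in 9 libraries and below it in 7. Nfib was above Nfic and Nfia in all 16 libraries, while Nfia exceeded Nfic in 4 of them, so that Nfia and Nfic, as neighbours in the order, overlapped in their ranges (31.2 to 47.7 TPM and 40.6 to 51.3 TPM). In bulk tissue, fewer cells of a type and less RNA per cell cannot be told apart. Of 6 markers of dentate granule neurons (Prox1, C1ql2, Calb1, Dsp, Rasgrf2 and Trpc6), 0 were at 0 in all libraries, and their summed level ranged from 460 to 1236 TPM. No marker of another region was set beside them, so these values do not check the dentate gyrus label.

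**Figure D1:**
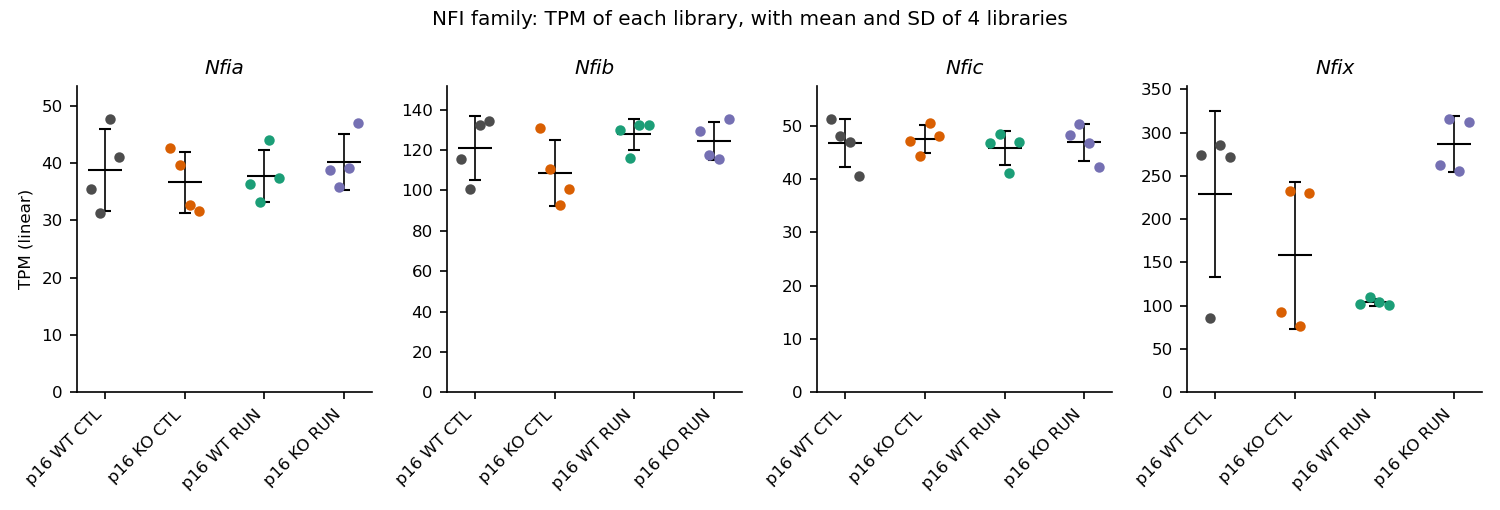
TPM on a linear axis of Nfia, Nfib, Nfic and Nfix (one panel each) in the 4 groups; points are libraries, and the bars give the mean and SD of 4 libraries. Nfix stands at 76.4 to 110 TPM or at 230 to 316 TPM with no library between, and the points of the other members overlap between the groups.

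Nfix, the member with the widest spread, differed between libraries 4.13-fold from the lowest to the highest. In p16 WT CTL it measured 273.8, 86.0, 285.7 and 272.3 TPM in replicates 1 to 4. In p16 KO CTL it measured 92.6, 233.0, 76.4 and 230.4 TPM in replicates 5 to 8. Sedentary mice of both genotypes thus included libraries of either level, with 1 of 4 p16 WT CTL and 2 of 4 p16 KO CTL libraries at the lower one. In p16 WT RUN it measured 102.2, 109.6, 104.5 and 100.4 TPM in replicates 9 to 12. In p16 KO RUN it measured 262.4, 315.9, 255.2 and 312.5 TPM in replicates 13 to 16. The running groups each held a single level, with all p16 WT RUN libraries at the lower and all p16 KO RUN libraries at the upper one.

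No library lay between 110 and 230 TPM. The gap was 1.10 on the log2 scale of the scaled TPM, against a range of 0.41 within the 7 lower libraries and 0.44 within the 9 upper ones, and the lowest upper library had 2.10 times the TPM of the highest lower library. Among the 10094 genes that averaged 10 TPM or more, Nfix ranked 154 by the fold between its highest and lowest library, a fold reached by 1.53% of these genes. Nfia ranked 3632 with 1.53-fold, Nfib ranked 4421 with 1.46-fold and Nfic ranked 7761 with 1.26-fold, and the median gene differed 1.41-fold. The spread of Nfia, Nfib and Nfic was therefore near that of the median gene, and that of Nfix was not. These ranks describe the pattern for which the family was singled out.

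The step of Nfix was followed through the other values of its entry. FPKM, the fragments per length and depth of the library, was 28.1 to 37.1 in the 7 lower libraries and 80.9 to 109 in the 9 upper ones. The Coverage per base, divided by the coverage that 1 FPKM was worth in the same library, was 24.7 to 32.1 and 70.0 to 93.3. The step was thus present in TPM, FPKM and Coverage alike, which are not independent measures. Within a library TPM is FPKM times a constant, and the Coverage so divided is FPKM times the length index defined next. The ratio of Coverage to FPKM, taken relative to the most frequent ratio of the library, served as a length index, which changes when abundance is assigned to transcripts of another length. For Nfix the index was 0.860 to 0.897 over all 16 libraries, and its ranges in the lower libraries (0.865 to 0.897) and in the upper ones (0.860 to 0.889) overlapped. The gene with the widest range of this index was Ehbp1l1, from 0.568 to 0.994, followed by Ttll7, 4933434E20Rik, Hnrnpa3 and Tle1, and Nfix ranked 426 among 10076 genes. The index was 0.644 to 0.646 for Nfia, 0.970 to 0.989 for Nfib and 0.995 to 0.998 for Nfic.

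**Figure D2:**
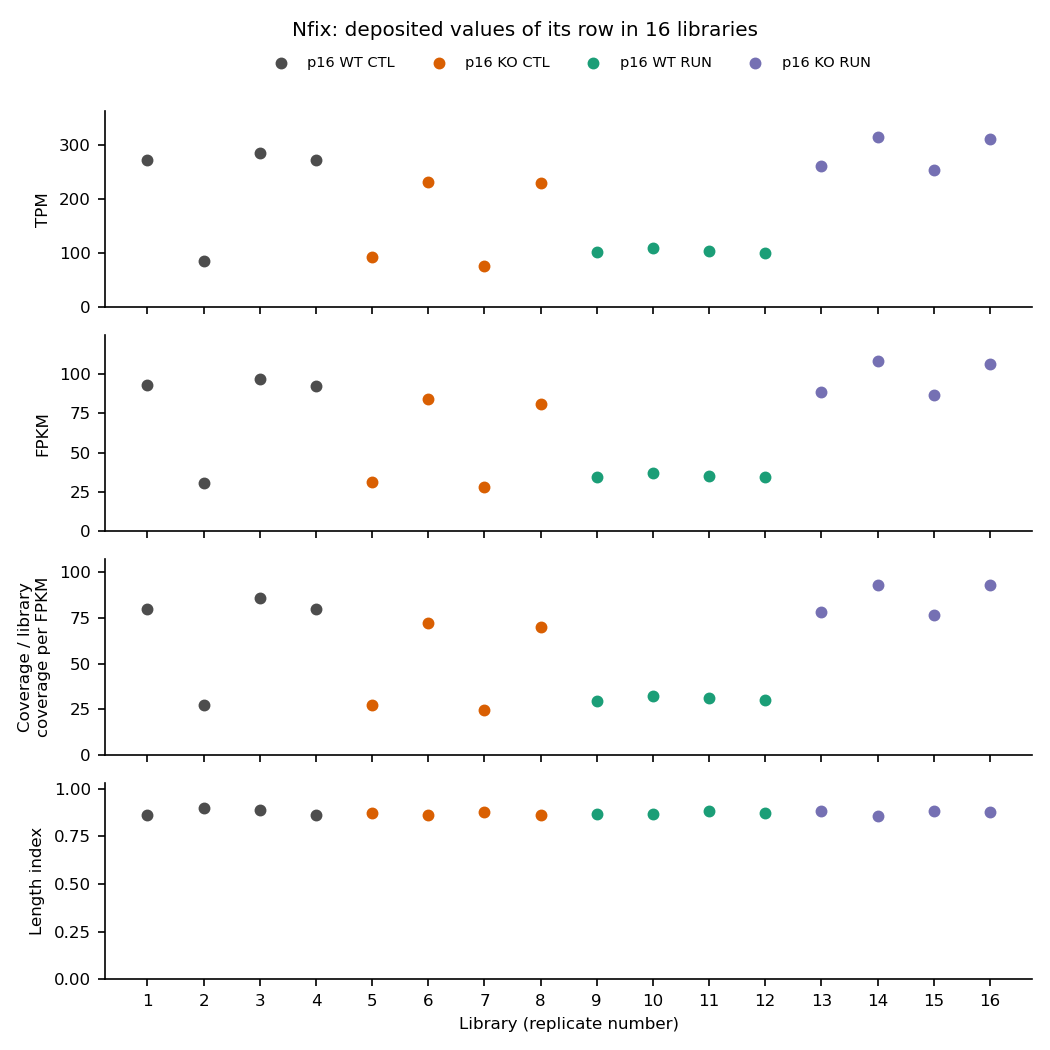
TPM, FPKM, depth-corrected Coverage and length index of Nfix (panels from top to bottom, linear axes from 0) against the replicate number of the 16 libraries, coloured by group; each point is a library. The same 7 libraries are low in the panels of TPM, FPKM and Coverage (28.1 to 37.1 FPKM against 80.9 to 109), whereas the length index stays between 0.860 and 0.897.

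Relative depth differed among the libraries low in Nfix more than among those high in it. The coverage that 1 FPKM was worth, a relative measure of depth in these tables without read counts, was 16.8 in p16 WT CTL replicate 2 and 14.6 in p16 KO CTL replicate 7, both low in Nfix, 5.42 to 7.49 in the p16 WT RUN libraries and 7.78 in p16 KO CTL replicate 5, also low, and 6.90 to 9.22 in the libraries high in Nfix. The libraries low in Nfix thus lay above, below and within the range of those high in it. The summed TPM of 6 nuclear long noncoding RNAs (Malat1, Neat1, Meg3, Miat, Snhg11 and Rian) set 3 libraries apart, p16 WT CTL replicate 2 with 968 TPM, p16 KO CTL replicate 6 with 536 TPM and p16 KO CTL replicate 7 with 473 TPM, against 1811 to 2510 TPM in the other 13. Of these 3 libraries, p16 KO CTL replicate 6 had the upper level of Nfix (233.0 TPM) and the other two had the lower. The parts of depth and RNA quality in the step were not tested.

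The genes around Nfix showed no step of that size. Lyl1, a transcription factor gene on the plus strand, overlaps the end of the deposited Nfix entry by 5 bases and had 1.61 to 3.14 TPM. The GENCODE span of Nfix (chr8:84699876-84800344) reaches further and contains the whole of Lyl1 (chr8:84701457-84704716). The neighbours Trmt1, which encodes a tRNA methyltransferase, Nacc1, Dand5 and Gadd45gip1 differed 1.71-fold, 1.17-fold, 1.69-fold and 1.46-fold between their highest and lowest library, and Lyl1 1.96-fold. Each of these folds over all 16 libraries was below the 2.10-fold gap of Nfix. Around the other members, the deposited Nfia entry overlaps E130114P18Rik, on the opposite strand, by 2649 bases (7.52 to 17.1 TPM). The GENCODE transcripts of Nfia begin at chr4:97772734, beyond the end of E130114P18Rik at chr4:97584591. Nfic contains Mir1191b, a microRNA entry of 58 bases (0 to 1.27 TPM). The library kit keeps the strand according to the labels, but whether the abundances were computed with the strand is not given in the sources used here, so that reads of Nfia and of E130114P18Rik may not have been told apart.

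Separate levels were not particular to Nfix. Of these 10094 genes, 138 (1.37%) had 2 levels of at least 3 libraries each, with a gap wider than the range on either side, and in 21 of them the gap was at least 1 on the log2 scale. Nfix held rank 18 by its gap, and 0 of the other members were among the 138. Further examples, named after their values were seen, were Rps27, a ribosomal protein gene (12.6 to 18.6 TPM in 8 libraries and 671 to 1035 TPM in 8), and Aqp4, the water channel of astrocytes (18.5 to 28.6 TPM in 6 libraries and 83.8 to 132 TPM in 10). The 8 libraries low in Rps27 were the 8 libraries high in Rps27rt, its retrotransposed copy. For Nfix no such counterpart was found, as 0 of the 138 genes divided the libraries in the opposite way, and 0 others divided them in the same way.

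Set by set, the level of Nfix in p16 KO RUN (286.5 ± 32.1 TPM, SD, n = 4) exceeded each library of the sedentary KO mice (158 ± 85.2 TPM) and of the WT runners (104 ± 3.98 TPM). The log2 difference was 0.96 in Set A, which compares KO runners with sedentary KO mice, and 1.46 in Set E, which compares KO with WT runners, on log2(scaled TPM + 0.1). Among all tested genes, groups without overlap were found for 10.4% in Set A and for 2.46% in Set E. In Set B (sedentary KO against sedentary WT mice), Set C (WT runners against sedentary WT mice) and Set D (KO runners against sedentary WT mice) the groups overlapped, as they did for all but 2.7%, 3.34% and 5.68% of the genes, respectively. There the log2 differences were -0.51, -1.003 and 0.46. These values depend on single sedentary libraries, among them p16 WT CTL replicate 2 and p16 KO CTL replicate 7. Without the former, the difference was -0.90 for Set B, -1.40 for Set C and 0.06 for Set D, and without the latter it was -0.24 for Set B and 0.70 for Set A. For Set A it was 0.74 without p16 KO CTL replicate 5, 1.22 without replicate 6 and 1.20 without replicate 8. Sets A, D and E share the p16 KO RUN libraries, and Sets B, C and D the p16 WT CTL libraries. Sets A and B share the p16 KO CTL libraries, and Sets C and E the p16 WT RUN libraries.

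Nfib, the second member by level, ranged from 92.9 to 135.5 TPM. It measured 115.6, 100.9, 132.6 and 134.7 TPM in p16 WT CTL and 130.9, 110.5, 92.9 and 100.6 TPM in p16 KO CTL. It measured 129.7, 116.3, 132.4 and 132.6 TPM in p16 WT RUN and 129.5, 117.7, 115.6 and 135.5 TPM in p16 KO RUN. The 4 groups overlapped, and the lowest values came from sedentary mice of both genotypes. Among the 5 sets its largest difference was in Set A, with a log2 fold change of 0.14 (95% interval -0.06 to 0.34, limma adjusted p = 0.39), from 109 ± 16.4 to 125 ± 9.51 TPM (SD, n = 4 each).

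Nfia measured 35.4, 31.2, 47.7 and 41.0 TPM in p16 WT CTL and 42.5, 39.7, 32.6 and 31.7 TPM in p16 KO CTL. It measured 36.3, 33.2, 44.1 and 37.3 TPM in p16 WT RUN and 38.7, 35.8, 39.1 and 47.0 TPM in p16 KO RUN. Each group spanned most of the range of the gene. Of the 5 sets, Set E had its largest difference, with a log2 fold change of 0.10 (95% interval -0.12 to 0.31, limma adjusted p = 1).

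Nfic was the member with the narrowest spread. It measured 51.3, 48.1, 47.0 and 40.6 TPM in p16 WT CTL and 47.2, 44.3, 50.5 and 48.0 TPM in p16 KO CTL. It measured 46.8, 48.4, 41.2 and 47.0 TPM in p16 WT RUN and 48.2, 50.3, 46.7 and 42.2 TPM in p16 KO RUN. The group means lay between 45.9 and 47.5 TPM. The largest differences within the 5 sets were a log2 fold change of 0.09 in Set B (95% interval -0.13 to 0.31, limma adjusted p = 0.72) and of -0.09 in Set A (95% interval -0.27 to 0.09, limma adjusted p = 0.56).

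In none of the 5 sets, nor in the interaction of genotype and running (p16 KO RUN minus p16 KO CTL, less p16 WT RUN minus p16 WT CTL), did Nfia, Nfib or Nfic have an unadjusted p under 0.05, the threshold of the paper's methods, in limma. This count of 0 of 3 in each comparison stood beside the shares of the 17317 tested genes, which were 18.5% for Set A, 6.69% for Set B, 4.81% for Set C, 8.63% for Set D, 3.87% for Set E and 5.48% for the interaction. At an adjusted p under 0.05 the counts over all genes were 3 in Set A (0.0173%; Hectd2, Inhba and Slc27a3), 1 in Set E (0.00577%) and 0 elsewhere. The widest of the 95% intervals in the 5 sets, that of Nfia in Set B, ran from -0.30 to 0.27, and in the interaction the intervals ran from -0.24 to 0.47 for Nfia, -0.19 to 0.32 for Nfib and -0.32 to 0.23 for Nfic. Fold changes inside these bounds could not be distinguished from 0.

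**Figure D3:**
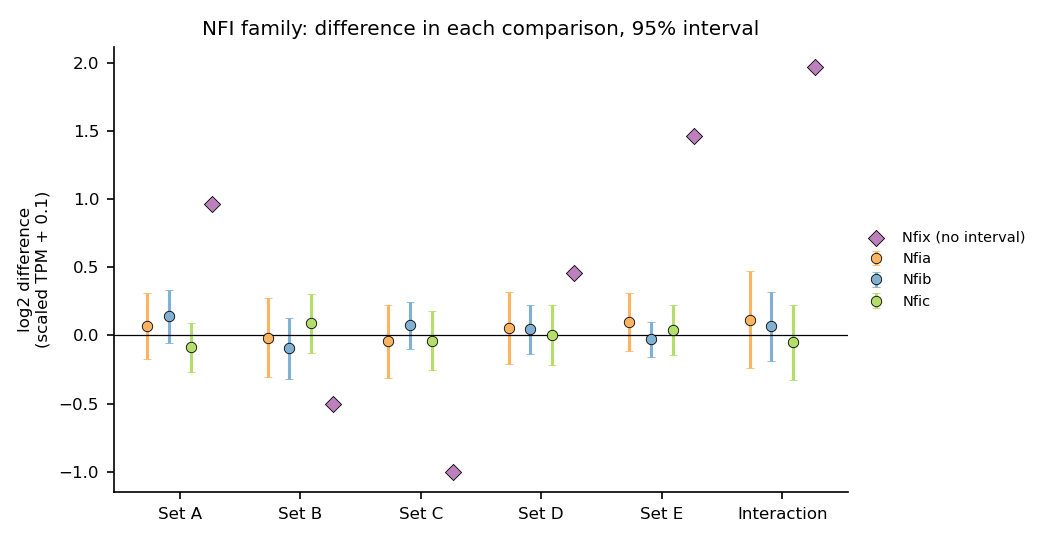
Log2 difference of scaled TPM + 0.1 for each member in Sets A to E and in the interaction; circles with bars are limma estimates with 95% intervals for Nfia, Nfib and Nfic, and diamonds are Nfix, given without an interval. All circles have intervals that include 0, while the diamonds run from -1.003 in Set C to 1.97 in the interaction.

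The summed level of the family followed the step of Nfix. The sum of the 4 genes was 252 TPM in p16 KO CTL replicate 7, the lowest library, and 537 TPM in p16 KO RUN replicate 16, the highest. Nfix made up 29.6% to 35.6% of the family in the libraries of its lower level, in which Nfib had the largest share, and 54.5% to 60.8% in those of its upper level. Without Nfix the sum was 176 to 227 TPM. The other members thus showed no step in the opposite direction.

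**Figure D4:**
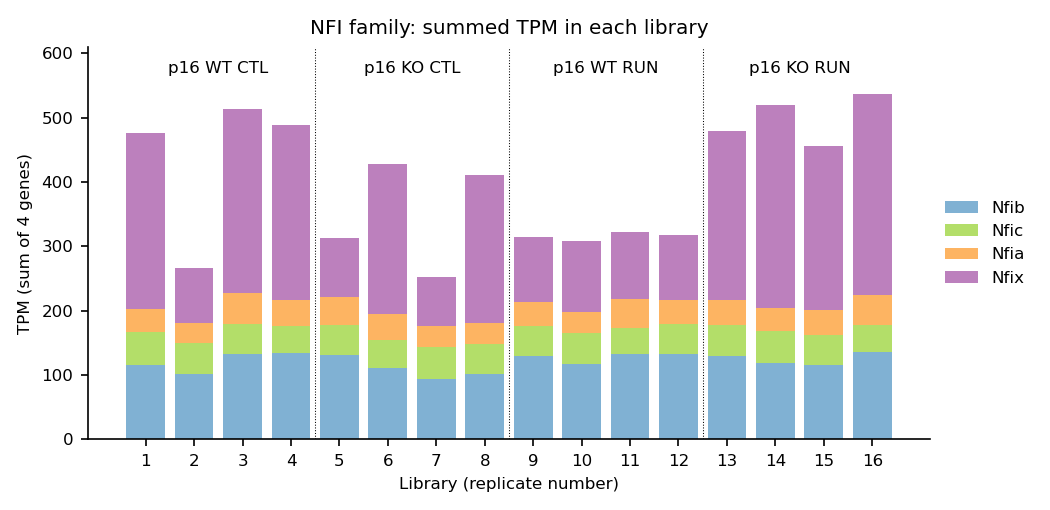
Stacked TPM of Nfib, Nfic, Nfia and Nfix (bottom to top) in each of the 16 libraries, with the groups separated by dotted lines. The summed height ranges from 252 to 537 TPM, and the part below Nfix from 176 to 227 TPM.

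Among the libraries Nfia and Nfib varied together and Nfic in the opposite direction. Pearson's r over 16 libraries in log2 scaled TPM was 0.68 for Nfia and Nfib, -0.64 for Nfia and Nfic and -0.74 for Nfib and Nfic, whereas that of Nfix with the others was 0.32, 0.16 and -0.17. These are descriptions over libraries that share groups and dissections. The 3 libraries lowest in Nfia, p16 WT CTL replicate 2 and p16 KO CTL replicates 7 and 8, were also the 3 lowest in Nfib, and they had the lowest summed level of granule neuron markers (591, 668 and 460 TPM). The 3 libraries highest in Nfia, p16 WT CTL replicate 3, p16 WT RUN replicate 11 and p16 KO RUN replicate 16, had the highest granule neuron sums (1229, 1077 and 1236 TPM). The summed oligodendrocyte markers were 2037, 2185 and 2426 TPM in the 3 libraries lowest in Nfia, the highest of all 16. They were 1195, 1226 and 1132 TPM in the 3 highest in Nfia. p16 WT CTL replicate 2 and p16 KO CTL replicate 7 were also among the libraries low in nuclear long noncoding RNAs. The part of the tissue composition in the levels of Nfia and Nfib was not tested.

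By likeness over the 16 libraries, among 14437 other genes that averaged 1 TPM or more, the gene most like Nfib was Rasgrf2, a Ras exchange factor gene from the list of granule neuron markers (r = 0.95, Spearman's rho = 0.94, and r = 0.96 without the 2 libraries farthest from the median of Nfib), followed by Nrg2 (r = 0.94), a neuregulin, and Scn3a (r = 0.94), a sodium channel subunit. The genes most like Nfia were Pak6, a kinase gene (r = 0.93), Rasl10a (r = 0.92) and Spon1 (r = 0.92), which encodes an extracellular matrix protein. Those most like Nfic were Stk39 (r = 0.94), a kinase gene, Josd1 (r = 0.93), a deubiquitinase gene, and Scn4b (r = 0.92). By Pearson's r Nfix had no gene as close. The highest r was 0.84, for Smek1, a phosphatase subunit gene, followed by Scel (0.80), Zfp143 (0.78), Pola2 (0.78) and Mb21d1 (0.78). By Spearman's rho, Scel and Zfp143 had 0.88 each, within the 0.84 to 0.94 of the genes named for the other members. Smek1, Pola2 and Mb21d1 had a rho of 0.78 to 0.79. Smek1 differed between 17.5 and 34.9 TPM.

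Nfia and Nfib lie on the chromosome of the knocked-out gene, Nfib 6.77 Mb and Nfia 8.29 Mb from Cdkn2a, on either side, and how far FVB sequence reaches around Cdkn2a in the p16 KO mice is not given in the sources used here. In Set B the log2 fold change was -0.02 for Nfia (95% interval -0.30 to 0.27, limma adjusted p = 0.97) and -0.10 for Nfib (95% interval -0.32 to 0.13, limma adjusted p = 0.71). Cdkn2a itself was between 0 and 0.586 TPM in sedentary WT mice, 0 and 0.344 TPM in sedentary KO mice, 0 and 0.475 TPM in WT runners and 0 and 0.413 TPM in KO runners. As this entry also covers p19Arf and was near 0 in all groups, it does not check the genotype labels.

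Partners and upstream factors of the family were examined next, on a list of 7 genes, all of which were tested. This list and the other lists were chosen with earlier results of these data known. Their shares beside those of all genes are therefore descriptions. In Set A, 4 of 7 had an unadjusted p under 0.05 and a lower level in p16 KO RUN, against 7.74% of all genes in that direction: Sox9, the factor upstream of Nfia in glial development (log2 fold change -0.43, from 35.3 ± 2.84 to 27.4 ± 1.23 TPM), Sox10, of the oligodendrocyte lineage (-0.29), Pou3f2, a neural POU factor (-0.48), and Pax6, of radial glia (-0.41). None reached an adjusted p under 0.05 in limma, the lowest being 0.12, for Sox9, and the median of the list was -0.29 against 0.02 over all genes. In Set B, 3 of 7 were higher in p16 KO CTL at this threshold, against 3.15% of all genes in that direction: Sox9 (0.29), Sox10 (0.34) and Olig2, a factor of the oligodendrocyte lineage (0.30), with a lowest adjusted p of 0.62. The median of the list was 0.29 against -0.01 over all genes. The p16 KO CTL libraries enter Sets A and B with opposite signs, so the 2 sets are not independent. In the same sets the median of 6 astrocyte markers was -0.35 and 0.26, and that of 6 oligodendrocyte markers -0.40 and 0.41, and the part of these cells in the result was not tested. Their summed levels were 2277 to 3293 TPM (astrocyte) and 1458 to 2426 TPM (oligodendrocyte) in p16 KO CTL, 2259 to 2597 and 1132 to 1484 TPM in p16 KO RUN, and 2230 to 2896 and 980 to 2037 TPM in p16 WT CTL, and 0 markers of either list were at 0 in all libraries. Without the libraries low in nuclear long noncoding RNAs (p16 KO CTL replicates 6 and 7 in Set A, and also p16 WT CTL replicate 2 in Set B), 2 of 7 were called in Set A (Sox9 and Pou3f2, 8.49% of all genes) and 2 of 7 in Set B (Sox9 and Pou3f2, 6.68%). The median of the partners was then -0.16 in Set A and 0.25 in Set B. That of the astrocyte markers was -0.01 and 0.14, and that of the oligodendrocyte markers -0.49 and 0.61.

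In Set C, 1 of the 7 partners, Pax6, was called, at a lower level in p16 WT RUN (log2 fold change -0.36, 2.13% of all genes in that direction). Without p16 WT CTL replicate 2 it was 0 of 7, with 5.88% of all genes called in either direction. In Set D only Olig2 was called, at a higher level in p16 KO RUN (0.28, 4.97% of all genes), and in Set E 0 of 7 were called (3.87% of all genes). In the interaction 3 of 7 had a negative term and 0 a positive one, Sox9 (-0.34), Sox10 (-0.38) and Pou3f2 (-0.46), against 2.54% of all genes in the negative and 2.95% in the positive direction. The median interaction term was -0.26 for the astrocyte markers and -0.56 for the oligodendrocyte markers, with 0 of 6 positive in either list. Of these markers, 0 and 1 of 6 were called lower (2.54% of all genes). Without the 3 libraries low in nuclear long noncoding RNAs the medians were -0.14 and -0.82, with 0 and 6 of 6 called lower (7.25% of all genes called in either direction). There 3 of the 7 partners were called lower, again Sox9, Sox10 and Pou3f2. The median of the partners was -0.20, against -0.13 with all libraries. The part of astrocytes and oligodendrocytes in the interaction of the partners was not tested. Notch1 and Rbpj, the receptor and the transcription factor of the Notch pathway, were called in none of the sets, with log2 fold changes of 0.16 and 0.10 in Set A.

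Of 13 genes reported as targets of NFI factors, 12 were tested, as Gabra6, a GABA receptor subunit of cerebellar granule neurons, was at most 0.11 TPM in any library. In Set A 1 of 12 was called, Slc1a3, a glutamate transporter of astrocytes, at a lower level in p16 KO RUN (-0.34, limma adjusted p = 0.24), a share near that of all genes in that direction (7.74%). In Set B 3 of 12 were called at a higher level in p16 KO CTL, against 3.15% of all genes: Gfap, the intermediate filament of astrocytes (0.45, from 468 ± 53.2 to 622 ± 141 TPM), Fabp7, a fatty acid binding protein of radial glia (0.56), and Zcchc24 (0.45). In the same set the median was 0.26 for the 6 astrocyte markers and 0.41 for the 6 oligodendrocyte markers, with 5 and 6 of them positive. Without the libraries low in nuclear long noncoding RNAs these medians were 0.14 and 0.61. The part of these cells in the levels of the targets was not tested. In Set D 2 of 12 were called at a higher level, Gfap (0.42) and Zcchc24 (0.23), against 4.97% of all genes in that direction. In Set E Zcchc24 (0.19) was called, and in Set C 0 of 12 (4.81% of all genes in either direction). None had an adjusted p under 0.05 in limma in any set. In the interaction 1 of 12, Fabp7, had a negative term at this threshold (-0.60, unadjusted p = 0.050), against 2.54% of all genes in that direction. Set E, in which Nfix had its largest difference, thus held 1 of 12 called targets (2.11% of all genes in that direction), and the median of the list was 0.06 against 0.00 over all genes. Without the libraries low in nuclear long noncoding RNAs, 1 of 12 was called in Set A (Ephb1, with 8.49% of all genes called) and 3 in Set B (Fabp7, Zcchc24 and Hes1, 6.68%). Sets C and D hold only 1 of these libraries, p16 WT CTL replicate 2, and without it 2 of 12 were called in Set C (Fabp7 and Apcdd1, 5.88%) and 6 in Set D (Gfap, Fabp7, Apcdd1, Zcchc24, Cdh2 and Hes1, 11.2%).

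**Figure D5:**
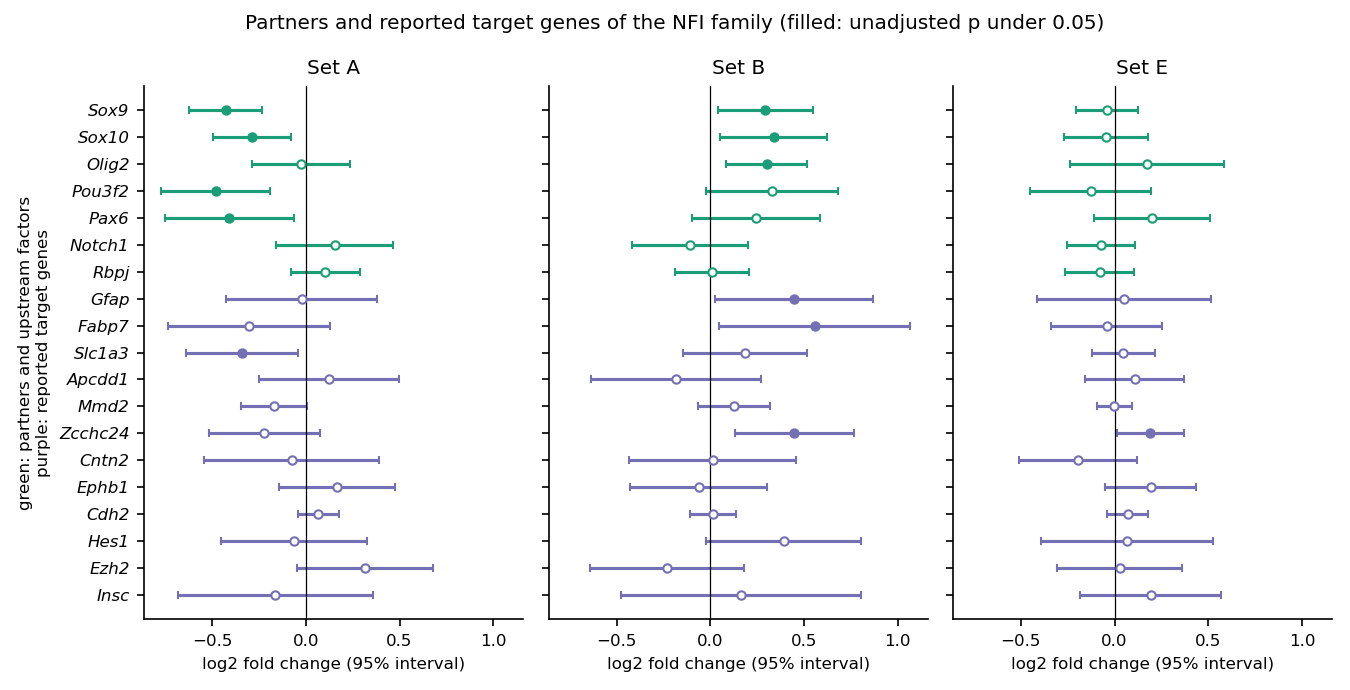
Log2 fold changes with 95% intervals (limma) of 7 partners and upstream factors (green) and 12 reported target genes (purple) in Sets A, B and E; filled points have an unadjusted p under 0.05. Sox9 lies at -0.43 in Set A and at 0.29 in Set B, and in Set E the only filled point is Zcchc24.

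Neural stem cell and progenitor genes, a list of 10, were divided in Set A. Mki67 (log2 fold change 1.32, from 0.736 ± 0.224 to 2.03 ± 0.178 TPM), a marker of proliferating cells, Eomes (0.98), of intermediate progenitors, and Vim (0.21), an intermediate filament, were higher in p16 KO RUN at an unadjusted p under 0.05 (10.7% of all genes in that direction), and Sox2 (-0.38), Hopx (-0.74) and Id4 (-0.44), which mark stem cells and astrocytes, were lower (7.74%). The lowest adjusted p in limma was 0.086, for Mki67. In Set E, 2 of 10 were higher in p16 KO RUN, Eomes (1.92, from 0.108 ± 0.098 to 0.640 ± 0.178 TPM) and Mki67 (0.53), against 2.11% of all genes in that direction, and in Set C 0 of 10 were called (4.81% in either direction). In Set B, 2 of 10 were higher in p16 KO CTL, Sox2 (0.34) and Hopx (0.46), against 3.15% of all genes. The astrocyte markers had a median of -0.35 in Set A, with 0 of 6 positive, and of 0.26 in Set B, with 5 of 6 positive. Without the libraries low in nuclear long noncoding RNAs these medians were -0.01 and 0.14. The part of astrocytes in the levels of Sox2, Hopx and Id4 was not tested. In Set D, 2 of 10 were higher in p16 KO RUN, Vim (0.42) and Mki67 (0.80), against 4.97% of all genes. In the interaction Eomes (2.07) and Mki67 (1.05) had a positive term (2.95% of all genes) and Hopx (-0.77) a negative one (2.54%). The levels of Eomes were below 1 TPM in all libraries. Without the libraries low in nuclear long noncoding RNAs, 4 of 10 were called in Set A (Mki67, Eomes, Sox2 and Hopx, with 8.49% of all genes called) and 4 in Set B (Sox2, Hopx, Id4 and Vim, 6.68%). Without p16 WT CTL replicate 2, the only one of them in Sets C and D, 0 were called in Set C (5.88%) and 3 in Set D (Vim, Mki67 and Dcx, 11.2%).

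As the files contain no binding data, the promoters were only read for the letters of the NFI site. RefSeq promoter windows (250 bases before to 50 after the start, GRCm38.p6) were given for 3 members, 4 windows for Nfix and 1 each for Nfia and Nfic, and for 10 of the reported targets. The windows of Nfix lie between chr8:84772826 and chr8:84780332, inside its deposited entry. The start of that entry, at chr8:84800338 on the minus strand, was not read. The full palindrome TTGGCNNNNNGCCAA was in 0.0365% of 32851 windows, none of them of a member or of these targets. The palindrome short of its last 2 letters (TTGGCNNNNNGCC, or GGCNNNNNGCCAA on the other strand) was in 1.38% of all windows, in 0 of the 6 windows of the members and in 1 of the 10 of the targets, that of Fabp7. It is shown, with the match in capitals, since Fabp7 was among the targets called in Set B.
Fabp7: tcaaatgaTTGGCTTTTTGCCcgcttctt
These 29 bases lie on the plus strand at chr10:57784860-57784888, and the match begins at position -55 from the start of the gene. The unit alone (TTGGC or GCCAA) was in 3 of the 6 windows of the members and 7 of the 10 of the targets, against 46.7% of all windows. A match of letters is a description and not a bound site.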

How the data were processed

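Dentate gyrus RNA of 16 libraries (4 per group) was analysed from the gene tables of the authors, who masked adapters with cutadapt 1.11, trimmed with ERNE, aligned with STAR to the UCSC mm10 genome and transcriptome and ran StringTie, whose version is not given in the sources used here. The deposited TPM and FPKM values are StringTie abundances, and the Coverage is the mean signal per base of an entry, as deposited by the authors. No read counts are in these tables, so counting error is unknown. Each library is a pool of 2 mice, so p-values measure the spread between pools.

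Entries of the same gene name were summed, and each library was scaled by its median ratio to the average library (13226 genes, no value under 1 TPM). Genes averaging 0.1 TPM or more, 17317 in all, entered limma 3.58.1 as log2(scaled TPM + 0.1) (R 4.3.3, variance trend), with the 8 libraries of each set or all 16 for the interaction, and adjusted by Benjamini and Hochberg over all genes. The procedure was tested on simulated data. Descriptions were made in Python 3.11.15. Because the fold change is taken after adding 0.1, it understates the change of low genes. Alternatives were pseudocounts of 1 and 0.01, filters, unscaled and quantile-normalized TPM, FPKM, Coverage, one fit of all libraries, no trend, the highest entry per name and leaving out libraries.

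Genes named are the members, Cdkn2a, the genes of the lists, the most alike genes, those of widest length index range and the neighbours. Rps27, Rps27rt, Hectd2, Inhba and Slc27a3 were named after their values were seen. Members and lists were chosen with earlier results of these data known.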

Additional observations from a re-analysis of the deposited data

Results flagged for a closer look

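The level of Nfix in p16 WT CTL replicate 2, 86.0 TPM, stood apart from the other 3 libraries of its group (272.3 to 285.7 TPM), and so did its depth-corrected Coverage, 27.5. The length index of Nfib in p16 KO CTL replicate 8, 0.979, stood apart from the other 3 libraries of its group, within a range of 0.970 to 0.989 over all libraries. Both values of Nfix restate the separate levels for which the family was chosen, and are given as a description only. In all, 48 groups of 4 values were examined for a single distant value, of which about 1 in 20 would be marked by chance.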

How the results depend on the processing

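Nfia, Nfib and Nfic kept an adjusted p above 0.05 in all 372 fits under the alternatives, and 1 of these fits had an unadjusted p under 0.05 (0.024, for Nfib in Set A without p16 KO CTL replicate 5, log2 fold change 0.21). Directions turned only where a fold change was near 0, in 3 fits with the full groups and in 24 that left out 1 library. None turned in Sets A, B and the interaction without the libraries low in nuclear long noncoding RNAs, an alternative chosen after seeing the data. With quantile normalization the log2 fold change was -0.0030 and with Coverage -0.0022 for Nfic in Set D, and with TPM as deposited the interaction of Nfic was 0.0039. The cause was not tested. Leaving out each library in turn gave -0.0013 to 0.12 for Nfia in Set A, 0.089 to 0.21 for Nfib in Set A, -0.13 to -0.032 for Nfic in Set A, -0.091 to 0.078 for Nfia in Set B, -0.16 to -0.045 for Nfib in Set B, 0.0089 to 0.14 for Nfic in Set B, -0.12 to 0.050 for Nfia in Set C, 0.014 to 0.12 for Nfib in Set C, -0.12 to 0.020 for Nfic in Set C, -0.020 to 0.15 for Nfia in Set D, -0.016 to 0.086 for Nfib in Set D, -0.078 to 0.056 for Nfic in Set D, 0.027 to 0.17 for Nfia in Set E, -0.065 to 0.0049 for Nfib in Set E, -0.019 to 0.094 for Nfic in Set E, 0.021 to 0.19 for Nfia in the interaction, 0.016 to 0.13 for Nfib in the interaction, -0.11 to 0.030 for Nfic in the interaction. For Nfix, described without a test, the same range was 0.70 to 1.22 in Set A, -0.90 to -0.24 in Set B, -1.40 to -0.86 in Set C, 0.06 to 0.60 in Set D, 1.40 to 1.51 in Set E, 1.70 to 2.36 in the interaction, and no other alternative moved it beyond the spread between replicates. The number of Nfia, Nfib and Nfic with an unadjusted p under 0.05 was 0 in all sets, and 0 to 1 in Set A when a library was left out. No paired analysis was possible because the groups share no replicate numbers. Without read counts, the precision of single libraries is unknown, and differences inside the intervals could not be seen.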
